A study of Mus musculus with 5 samples.

Results

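The genes described here are 34 mouse genes of the unfolded protein response, of protein folding in the endoplasmic reticulum (ER) and of ER-associated degradation. They were chosen by name from a list of known ER genes, with earlier results of these data known. All 34 are present in the authors' table of 23951 genes, and all 34 were among the 13264 genes that the authors tested. They were sorted here into 8 sensors and their effectors, 11 folding genes, 10 degradation genes, 4 genes of protein entry and export, and Wfs1.

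The values come from RNA-seq of pancreatic beta cells of transgenic mice. Mice of the p16 group carried Ins-rtTA, tet-GFP and tet-p16ink4a, so that tetracycline switched on both green fluorescent protein (GFP) and the cell cycle inhibitor p16INK4a. Control mice carried Ins-rtTA and tet-GFP only. Both groups received tetracycline for 10 days, and GFP-positive cells were sorted from dissociated islets, giving 3 samples with p16 and 2 with GFP. The labels used here name no age, strain or sex. The comparison asks which ER genes differ once p16INK4a is switched on. Values are FPKM, fragments scaled to the length of the transcript and to the size of the library, with 1 authors' value per group and gene. Values of single samples, their spread and the depth per library are unknown, so whether a gene differed is read from the q-value that the authors obtained with Cuffdiff. A gene is called here where that q-value is below 0.05. The labels do not say that each sample is its own mouse, so p-values measure the spread between these samples, which may be technical. In bulk samples, fewer cells of a type and less RNA per cell cannot be told apart.

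Beta cells make proinsulin in the ER, fold it with the help of chaperones and disulfide isomerases, and degrade what fails to fold. When unfolded protein builds up, the sensors IRE1 (Ern1), PERK (Eif2ak3) and ATF6 start the unfolded protein response. IRE1 splices the Xbp1 mRNA, PERK slows translation, and ATF6 is cut in the Golgi into a transcription factor. The factors ATF6 and XBP1 then act on promoters of chaperone and degradation genes, among them promoters with an ER stress response element (ERSE).

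Promoter sequences show which of the genes carry that element beside their expression. Promoters of 300 bases, from 250 before to 50 after the start, came from RefSeq on the GRCm38.p6 build, and 29 of the 34 genes matched, 28 by symbol and 1 by an older symbol. The ERSE was searched on both strands as CCAAT, 9 free bases and CCACG. It was found in the promoters of 7 of the 29 genes, or 24.1%, against 37 of 27025 genes, or 0.137%, of the whole promoter table. The 34 genes were picked as known genes of this response, so these shares describe the list, and their difference was not tested. The 7 matches are printed 5′ to 3′ in the direction of the motif, with its fixed bases in capitals, because they join a gene that rose with genes that did not:
Derl3: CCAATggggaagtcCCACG
Syvn1: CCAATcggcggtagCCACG
Creld2: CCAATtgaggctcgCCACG
Calr: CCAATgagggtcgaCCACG
Canx: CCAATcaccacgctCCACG
Pdia6: CCAATgaaaggcggCCACG
Ero1lb: CCAATgaggcgggaCCACG

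Read in the direction of the gene, the element begins 156 bases before the start in Derl3, 44 in Syvn1 and 126 in Creld2. It begins 162 bases before it in Calr, 145 in Canx, 98 in Pdia6 and 201 in Ero1lb. In Derl3, Creld2, Calr and Ero1lb the element stands reversed, so that its CCACG end comes first. The ratios of these 7 genes lay on both sides of 1. Derl3 was called higher with p16, and Syvn1 and Creld2 had higher values without a call. Calr, Canx, Pdia6 and Ero1lb had lower values, also without a call. Their log2 ratios of p16 over GFP ran from -0.60 to 1.62, with a median of -0.10. The other genes with an ERSE, 11 of which the authors tested, held no call in the authors' deposited table. Over all tested genes 4.32% were called higher and 1.10% lower. Of these 11, 3 had the higher value with p16, beside 48.4% of all tested genes. Among the 11, Adcy3, Xlr3b, Xlr3c and Zfp57 lay near or below 1 FPKM in both groups. Over all 18 tested genes with the element the median log2 ratio was -0.10, and over all tested genes it was -0.02.

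Related motifs were searched in the same promoters. The ERSE-II, ATTGG, 1 free base and CCACG, was found in 1 of the 29 genes, Herpud1, and in 0.0444% of genes in the table. The letters TGACGTG of the unfolded protein response element were found in 1 of 29, Sec24d, and in 2.22% of all genes. The C/EBP-ATF letters TGATGNAAT were in none of the 29 and in 1.08% of all genes. The letters CCACG, which lie within the ERSE and the ERSE-II and can overlap TGACGTG on the other strand, were in 22 of 29 and in 35.5% of all genes. Promoters were also matched for 118 further genes of the same pathways, listed below. Of these 118, CCACG was found in 80, or 67.8%, and TGACGTG in 12, or 10.2%. The ERSE was in 3 of them, Dnajc3, Hspa5 and Hsp90b1, or 2.54%, the ERSE-II in 2 and the C/EBP-ATF letters in 1. A match is a description of the sequence, and no match says only that these letters are not in the window.

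The 250 bases before the start are shown for the 3 genes that the authors' test called, since only 1 of them carries the ERSE. Capitals mark every CCACG on either strand and the CCAAT of the ERSE, which stands reversed in Derl3. Derl3 is at chr10:75893148-75893397 on the plus strand, Eif2ak3 at chr6:70844265-70844514 on the plus strand and Sel1l at chr12:91849158-91849407 on the minus strand, all on GRCm38.p6. In this stretch Derl3 holds CCACG 3 times, Eif2ak3 0 times and Sel1l 1 time.
Derl3: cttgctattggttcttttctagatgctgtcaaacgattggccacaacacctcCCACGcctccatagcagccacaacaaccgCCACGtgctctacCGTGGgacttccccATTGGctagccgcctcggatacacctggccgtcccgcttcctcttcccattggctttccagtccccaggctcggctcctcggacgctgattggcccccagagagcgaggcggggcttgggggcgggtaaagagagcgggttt
Eif2ak3: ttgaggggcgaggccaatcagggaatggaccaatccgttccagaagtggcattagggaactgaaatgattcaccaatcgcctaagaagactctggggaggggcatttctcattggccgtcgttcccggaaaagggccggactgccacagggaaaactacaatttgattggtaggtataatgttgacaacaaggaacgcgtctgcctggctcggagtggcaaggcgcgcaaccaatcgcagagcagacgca
Sel1l: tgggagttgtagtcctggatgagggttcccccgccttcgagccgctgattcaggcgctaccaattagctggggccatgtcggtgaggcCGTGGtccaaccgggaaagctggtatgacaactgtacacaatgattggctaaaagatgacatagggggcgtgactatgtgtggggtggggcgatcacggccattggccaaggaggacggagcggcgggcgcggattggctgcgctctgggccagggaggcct

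Of the 34 genes, 3 rose with p16 and none fell at a q-value below 0.05 in the authors' deposited table. Among all tested genes 4.32% were called higher and 1.10% lower, and among those with a mean of at least 5 FPKM, where all 34 lie, 3.51% and 1.27%. The 3 genes were the sensor gene Eif2ak3 and the degradation genes Derl3 and Sel1l. At an unadjusted p below 0.05 in the authors' deposited table, 8 of the 34 were higher and 1 was lower. At that level 1354 of the 13264 tested genes were higher and 930 lower, and of the 8719 with a mean of at least 5 FPKM 701 were higher and 644 lower. The value was higher with p16 in 23 of the 34, or 67.6%. The same share was 48.4% over all tested genes and 44.5% over those with a mean of at least 5 FPKM. Among 140 further tested genes of the same pathways, described below, it was 42.9%. The median log2 ratio of the 34 was 0.10, with quartiles at -0.11 and 0.33. With the median of genes of like GC content subtracted, 19 of the 34 had the higher value and the median was 0.058.

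**Figure D1:**
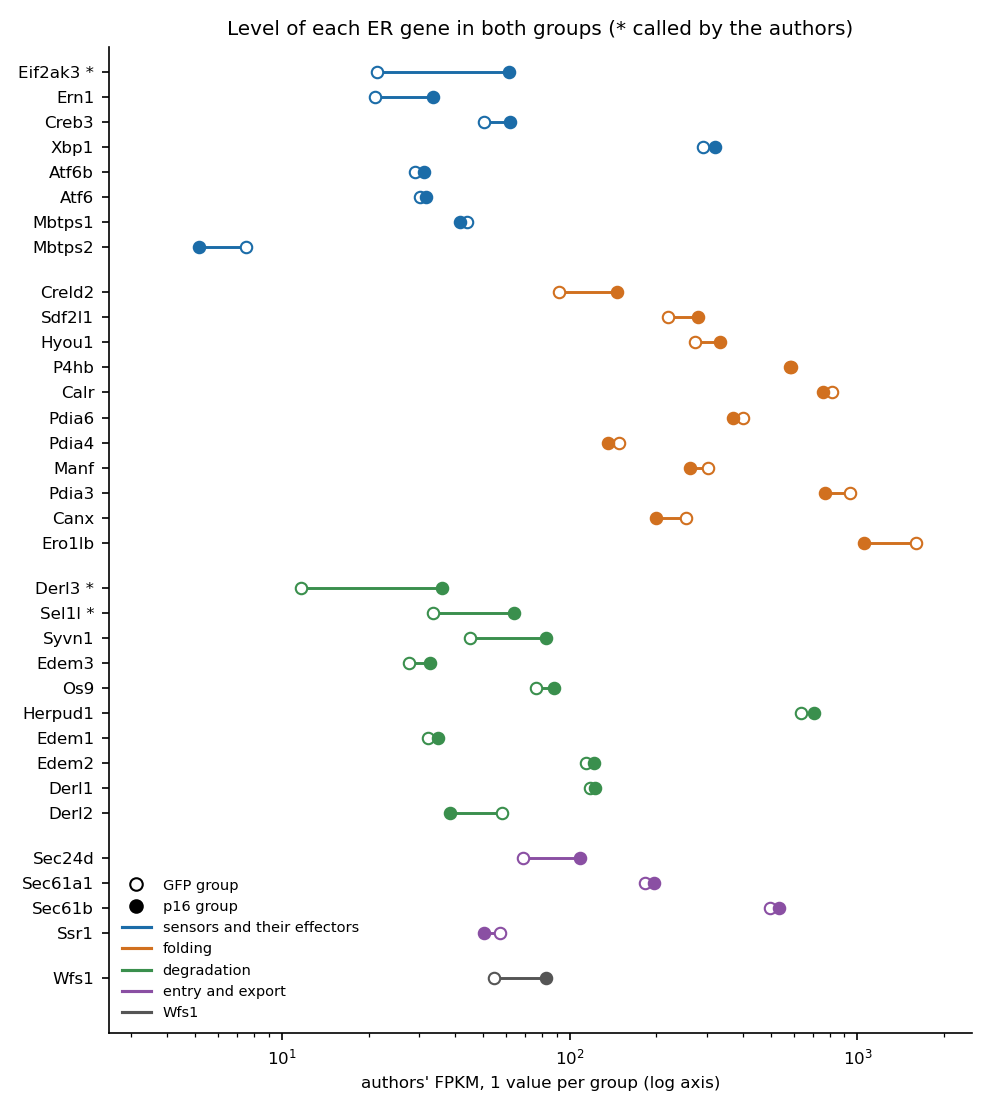
FPKM of each ER gene in the GFP group (open circles) and the p16 group (filled circles) on a log axis, ordered by role and then by ratio. The 3 starred genes, Eif2ak3, Derl3 and Sel1l, are those called in the authors' deposited table. Most other pairs of circles lie close together, and Ero1lb, at 1594 and 1051 FPKM, is the most abundant of the genes.

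Among the sensors and their effectors 1 gene rose. Eif2ak3, which encodes the kinase PERK, stood at 21.3 FPKM in GFP cells and 61.4 FPKM in p16 cells. It rose 2.88-fold (q = 0.00245 in the authors' deposited table), a larger log2 ratio than that of 96.9% of tested genes. The gene lies at chromosome 6, 70794521 to 70855234, in mm9. Ern1, which encodes IRE1, stood at 21.0 and 33.4 FPKM in GFP and p16, a ratio of 1.59 without a call (q = 0.138 in the authors' deposited table). These 2 sensor transcripts were at nearly equal levels in the control cells, and the difference between their ratios was not tested.

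In the ATF6 arm the ratios of the factors lay near 1. Atf6 stood at 30.1 and 31.6 FPKM and its relative Atf6b at 29.0 and 31.2 FPKM in GFP and p16 (q = 0.945 and 0.914 in the authors' deposited table). With the median of genes of like GC content subtracted, the log2 ratio of Atf6b went from 0.10 to -0.31. The Golgi proteases that cut ATF6 had lower values with p16. Mbtps1, which encodes site-1 protease, stood at 44.0 and 41.7 FPKM, and Mbtps2, which encodes site-2 protease, at 7.52 and 5.16 FPKM, with neither called (q = 0.941 and 0.351 in the authors' deposited table). Mbtps2 was the least abundant of the 34 genes in both groups and shares its locus with Yy2, which leaves the assignment of reads between them uncertain.

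The transcription factor genes were not called. Xbp1, whose mRNA IRE1 splices, stood at 291 FPKM in GFP cells and 321 FPKM in p16 cells (q = 0.870 in the authors' deposited table). FPKM per gene does not part spliced from unspliced Xbp1 mRNA, so the activity of IRE1 was not measured. Creb3, a membrane-bound factor that is cut like ATF6, stood at 50.4 and 62.1 FPKM (q = 0.780 in the authors' deposited table) and shares its locus with Gba2, Rgp1 and Msmp. Of the 8 genes in this role 1 was called higher in the authors' deposited table, and 2 were higher at an unadjusted p below 0.05. None was lower by either measure, and the median log2 ratio was 0.12. Over all 13264 tested genes 4.32% were called higher and 1.10% lower. At an unadjusted p below 0.05, 1354 of them were higher and 930 lower.

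Degradation genes had the higher value with p16 in 9 of 10 cases, and 2 of the 10 were called higher in the authors' deposited table, with none called lower. Over all tested genes 48.4% had the higher value, 4.32% were called higher and 1.10% lower. At an unadjusted p below 0.05 in that table, 3 of the 10 were higher and 1 was lower, beside 1354 and 930 of the 13264 tested genes. The median log2 ratio of the 10 was 0.18. Of 28 further degradation genes, described below, 12 had the higher value with p16. These genes serve the retrotranslocation complex, which pulls misfolded proteins back to the cytosol for ubiquitin tagging. Derl3, a derlin of its membrane channel, stood at 11.7 FPKM in GFP cells and 36.0 FPKM in p16 cells. It rose 3.08-fold (q = 0.00245 in the authors' deposited table), and 97.2% of tested genes had a lower log2 ratio. Derl3 lies at chromosome 10, 75356143 to 75358686, in mm9.

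The 3 derlin genes differed among themselves. Derl1, the most abundant, stood at 117 and 122 FPKM in GFP and p16 (q = 0.957 in the authors' deposited table). Derl2 stood at 58.0 and 38.4 FPKM, a log2 ratio of -0.59 and the second lowest of the 34 genes, without a call (q = 0.277 in the authors' deposited table). In the GFP group Derl3 was thus the lowest of the 3 derlins, and in the p16 group its level stood next to that of Derl2. Derl2 shares its locus with Mis12, which leaves the assignment of its reads uncertain. The differences between the ratios of the derlins were not tested.

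The ubiquitin ligase at the centre of the complex and its adaptor gave close ratios. Sel1l, the adaptor that holds the ligase and hands it substrates, stood at 33.5 FPKM in GFP cells and 64.2 FPKM in p16 cells. It rose 1.92-fold (q = 0.0194 in the authors' deposited table) and lies at chromosome 12, 93044483 to 93087597, in mm9. Syvn1, which encodes the ligase HRD1, stood at 45.2 and 82.9 FPKM, a ratio of 1.84, and just missed the call (q = 0.0559 in the authors' deposited table). Sel1l is the gene just inside the threshold and Syvn1 the one just outside it. Syvn1 shares its locus with Mrpl49 and a microRNA gene, which leaves the assignment of its reads uncertain.

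The remaining degradation genes had ratios near 1. Herpud1, a scaffold of the complex and the most abundant gene of this role, stood at 636 FPKM in GFP cells and 704 FPKM in p16 cells (q = 0.875 in the authors' deposited table). Os9, a lectin that recognises misfolded glycoproteins, stood at 76.3 and 88.5 FPKM (q = 0.774 in the authors' deposited table), and its log2 ratio went from 0.21 to -0.06 with the median of genes of like GC content subtracted. Edem1, Edem2 and Edem3, which encode proteins that trim mannose from misfolded glycoproteins, had ratios of 1.09, 1.07 and 1.18. Their q-values in the authors' deposited table ran from 0.733 to 0.922. The 3 Edem genes therefore had ratios within a narrow range, and none was called.

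Folding genes were abundant and none was called. In the Cuffdiff test of the authors' deposited table, 0 of 11 passed, beside 4.32% of all tested genes called higher and 1.10% lower. At an unadjusted p below 0.05 there was 1 higher and 0 lower. At that unadjusted level 1354 of the 13264 tested genes were higher and 930 lower. The value was higher with p16 in 4 of the 11 and the median log2 ratio was -0.12. With quantile normalization on log2(FPKM + 1) the value was higher in 7 of 11 and the median was 0.03, so the direction of this role depends on the scaling. That scaling moved the median of tested genes with at least 200 FPKM in GFP from -0.19 to -0.04. Levels in the GFP group ran from 92.1 FPKM for Creld2 to 1594 FPKM for Ero1lb.

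Ero1lb encodes the oxidase that keeps protein disulfide isomerases oxidised and is abundant in beta cells. It stood at 1594 FPKM in GFP cells and 1051 FPKM in p16 cells, the lowest log2 ratio of the 34 genes at -0.60, without a call (q = 0.322 in the authors' deposited table). Summed over the 11 folding genes, the level was 5626 FPKM in GFP cells and 4898 FPKM in p16 cells. Without Ero1lb the sums were 4032 and 3848 FPKM, so most of the difference in the sum lay in this 1 gene.

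The isomerases and lectin chaperones had the lower value with p16 with 1 exception. P4hb, the main disulfide isomerase, stood at 582 and 589 FPKM in GFP and p16 (q = 0.986 in the authors' deposited table). Pdia4 stood at 148 and 136 FPKM and Pdia6 at 402 and 370 FPKM. Pdia4 shares its locus with the microRNA gene Mir704 and Pdia6 with Atp6v1c2, which leaves the assignment of their reads uncertain. Pdia3, the isomerase that works with the lectin chaperones, stood at 945 and 773 FPKM (q = 0.704 in the authors' deposited table). The lectin chaperones that hold newly made glycoproteins were also lower, Calr at 818 and 761 FPKM and Canx at 253 and 200 FPKM. Of these 6 genes none was called, and their log2 ratios ran from -0.34 to 0.02, while with quantile normalization Calr, Pdia4 and Pdia6 turned to 0.13, 0.03 and 0.03. With the median of genes of like GC content subtracted, P4hb stood at -0.11.

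Folding genes that work around the chaperone BiP went both ways. Creld2, an ER stress-inducible protein, stood at 92.1 FPKM in GFP cells and 146 FPKM in p16 cells, the highest ratio of this role at 1.59 (q = 0.140 in the authors' deposited table). Sdf2l1, a lumenal partner of BiP co-chaperones, stood at 219 and 278 FPKM, and Hyou1, a nucleotide exchange factor of BiP, at 272 and 333 FPKM. Manf, a secreted and lumenal protein that binds BiP, stood at 302 and 261 FPKM. None of the 4 was called, with q-values from 0.140 to 0.778 in the authors' deposited table.

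Genes of entry into and exit from the ER had ratios above 1 in 3 of 4 cases, and none of the 4 was called by Cuffdiff. Over all tested genes 4.32% were called higher and 1.10% lower. At an unadjusted p below 0.05 in the authors' deposited table, 1 of them was higher, with none lower, beside 1354 and 930 of the 13264 tested genes. Sec61a1 and Sec61b, subunits of the translocation channel, stood at 183 and 197 FPKM and at 497 and 533 FPKM in GFP and p16. Ssr1, of the translocon-associated complex, stood at 57.2 and 50.2 FPKM. With the median of genes of like GC content subtracted, the log2 ratios of these 3 genes had the opposite sign, at -0.02, -0.06 and 0.07. Sec24d, a cargo adaptor of the COPII vesicles that leave the ER, stood at 68.7 and 109 FPKM (q = 0.132 in the authors' deposited table). Its ratio of 1.58 was the highest of this role. Wfs1, an ER membrane protein that is lost in Wolfram syndrome with diabetes, stood at 54.4 and 82.7 FPKM, a ratio of 1.52 without a call, though its unadjusted p was below 0.05 (q = 0.204 in the authors' deposited table).

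The ratios were higher among the genes of low level. The level here is the FPKM in GFP, which is also the denominator of the ratio. A low value there raises the ratio by itself, so part of this relation is built in. Of 11 genes below 50 FPKM in GFP 9 had the higher value with p16, and all 3 calls were among them. Of all tested genes at that level 51.2% had the higher value, and 554 of 11593 were called higher in the authors' deposited table. Of 11 genes with 50 to below 200 FPKM 8 had the higher value, and none was called in the authors' deposited table. Of all tested genes at that level 30.8% had the higher value, and 14 of 1305 were called higher in that table. Of 12 genes with 200 FPKM or more 6 had the higher value, and none was called in the authors' deposited table. Of all tested genes at that level 23.5% had the higher value, and 5 of 366 were called higher in the authors' deposited table. The median log2 ratios of the ER genes below 50 FPKM, from 50 to below 200 FPKM and with 200 FPKM or more were 0.24, 0.11 and -0.04. Across all tested genes in the same ranges of level the medians were 0.01, -0.18 and -0.19. Across the 34 genes, which share the same libraries, Spearman's rho between the FPKM in GFP and the log2 ratio was -0.45, and across 13174 tested genes above 0 in both groups it was -0.26.

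**Figure D2:**
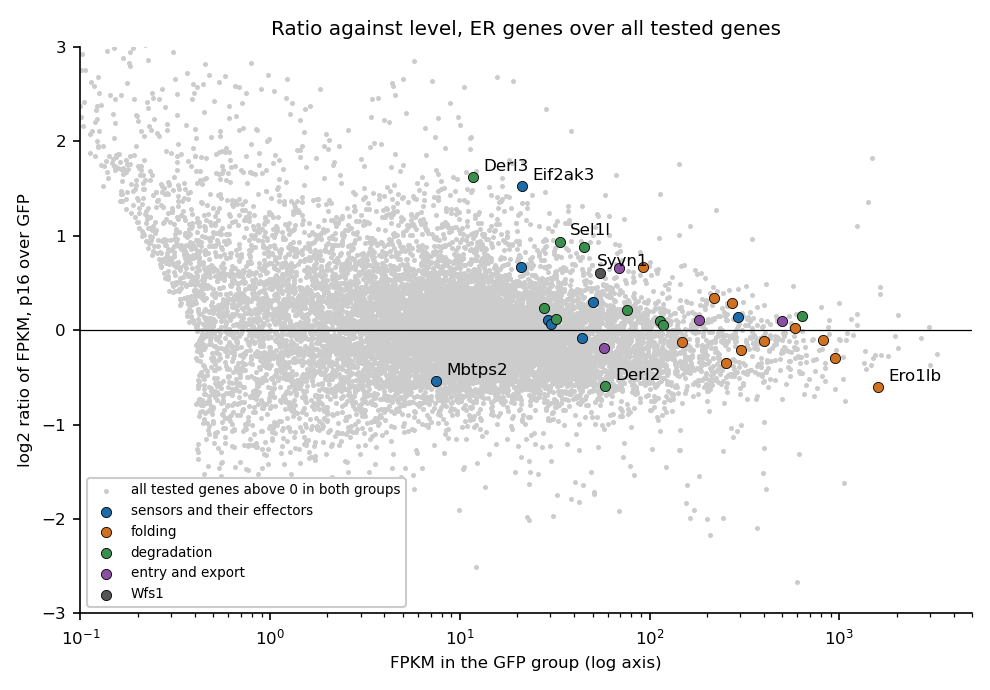
Log2 ratio of FPKM, p16 over GFP, against the FPKM in the GFP group on a log axis, for the ER genes by role (coloured) over all tested genes (grey; points outside the plotted range are left out). Eif2ak3 and Derl3 lie above most grey points at their level, and the genes of 200 FPKM or more lie between -0.60 (Ero1lb) and 0.34 (Sdf2l1).

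The ratios also moved with the GC content of the transcripts. Across the 34 genes Spearman's rho between GC content and log2 ratio was 0.60, and across 13052 tested genes it was 0.46, with the libraries shared by all points. Derl2, Ero1lb and Mbtps2, with the lowest log2 ratios, had GC contents of 42.9%, 44.0% and 39.96%. Derl3 and Syvn1 had 57.3% and 56.6%, while Eif2ak3 and Sel1l had 51.2% and 47.7%. With the median of tested genes of like GC content subtracted, the log2 ratios of Derl3, Eif2ak3 and Sel1l were 1.35, 1.52 and 1.05, against 1.62, 1.52 and 0.94 before. Those of Derl2, Ero1lb and Mbtps2 were -0.29, -0.35 and -0.21, against -0.59, -0.60 and -0.54. For Wfs1 the log2 ratio went from 0.60 to 0.33. The part of GC content in the authors' calls was not tested.

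**Figure D3:**
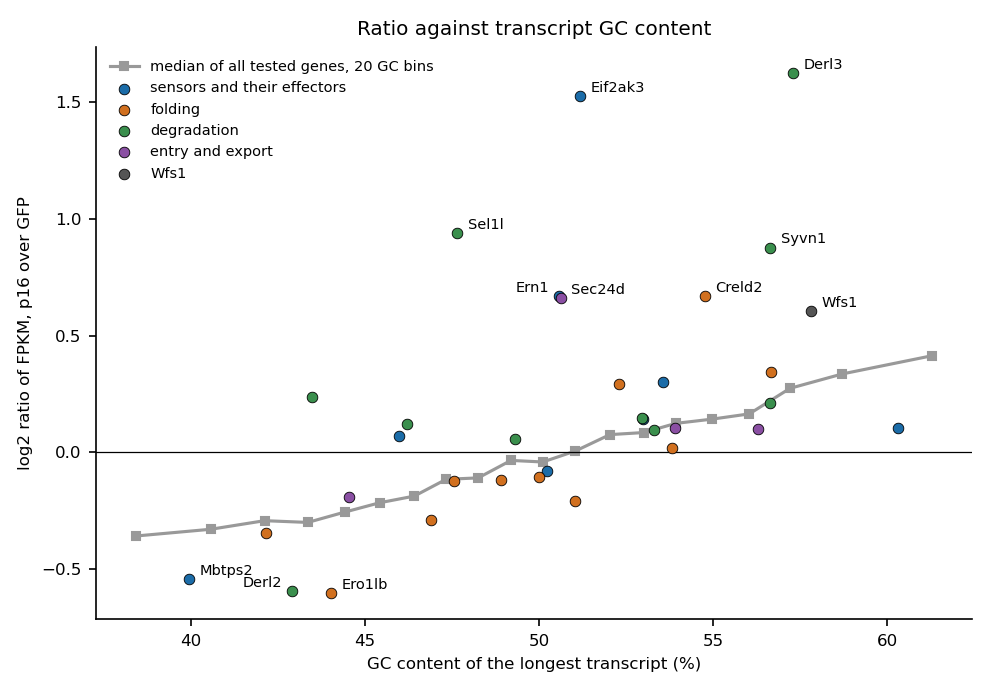
Log2 ratio of FPKM, p16 over GFP, against the GC content of the longest transcript, for the ER genes by role and as medians of all tested genes in 20 bins of GC content (grey squares). The grey medians climb from -0.36 in the lowest bin to 0.41 in the highest, many ER genes lie near them, and Eif2ak3, Derl3 and Sel1l lie above them.

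Other genes of the same pathways showed few calls. Of 143 further genes listed for these roles 142 are in the table and 140 were tested. The value was higher with p16 in 60 of the 140, or 42.9%, and their median log2 ratio was -0.06. Of these 140, 2 were called higher and 1 lower with p16 in the authors' deposited table, beside 4.32% and 1.10% of all tested genes. All 3 belong to the PERK arm, of which 10 genes were listed. Trib3, a pseudokinase induced by ATF4 and CHOP, rose from 9.71 to 46.3 FPKM, and Chac1, an enzyme that breaks down glutathione, rose from 53.1 to 125 FPKM, with q = 0.00245 for each in the authors' deposited table. Atf3, a factor of the stress response that is also an early response gene, fell from 616 to 248 FPKM, called with q = 0.0118 in the authors' deposited table. The factor Atf4 itself stood at 581 and 504 FPKM and its target Ddit3, which encodes CHOP, at 266 and 193 FPKM in GFP and p16. Neither was called (q = 0.792 and 0.561 in the authors' deposited table) and both were chosen for mention with their values known. Within this arm 8 of the 10 further genes had the lower value with p16, while the kinase gene Eif2ak3 rose. The lower value was found in 6846 of the 13264 tested genes. At an unadjusted p below 0.05 in the authors' deposited table, 2 of the 10 were higher and 3 lower. Over all tested genes 1354 were higher and 930 lower at that level. Besides Atf3, the lower ones were Eif2s1 at 22.9 and 14.9 FPKM and Ppp1r15a at 207 and 134 FPKM. Neither was called (q = 0.196 and 0.253 in the authors' deposited table), and both are named with their values known.

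No call was made among the other roles, beside 4.32% of all tested genes called higher and 1.10% lower. In the Cuffdiff test of the authors' deposited table, 0 of 32 further folding genes passed, with 0 higher and 2 lower at an unadjusted p below 0.05. At that unadjusted level 1354 of the 13264 tested genes were higher and 930 lower. Hspa5, which encodes BiP, was the most abundant of the tested genes of all lists here, at 3278 FPKM in GFP cells and 2755 FPKM in p16 cells (q = 0.780 in the authors' deposited table). Hsp90b1, which encodes the chaperone GRP94, stood at 1090 and 1015 FPKM. Among 28 further degradation genes 0 passed, with 0 higher and 1 lower at an unadjusted p below 0.05 in the authors' deposited table. The value was higher with p16 in 12 of these 28, and their median log2 ratio was -0.03. Selk and Vimp, which encode selenoproteins of the ER membrane, stood at 409 and 302 FPKM and at 196 and 163 FPKM. The median of the 10 degradation genes given above was 0.18, and the difference between the lists was not tested.

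The lists for entry, export, calcium and the remaining sensors had no call in the authors' deposited table either. Of their 31, 22, 10 and 7 tested genes, 0, 1, 1 and 1 were higher and 1, 0, 1 and 0 lower at an unadjusted p below 0.05. Over all 13264 tested genes 1354 were higher and 930 lower at that level. For entry, Ssr4, a translocon-associated subunit, stood at 512 and 492 FPKM and Serp1 at 411 and 302 FPKM. For export, the cargo receptor genes Tmed2 and Surf4 stood at 439 and 351 FPKM and at 274 and 259 FPKM. The calcium pump genes Atp2a2 and Atp2a3 stood at 516 and 452 FPKM and at 276 and 299 FPKM. Tmbim6, a membrane protein that inhibits IRE1, stood at 212 and 256 FPKM, and the cell death gene Bax at 43.0 and 40.6 FPKM. None of these 8 genes was called.

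**Figure D4:**
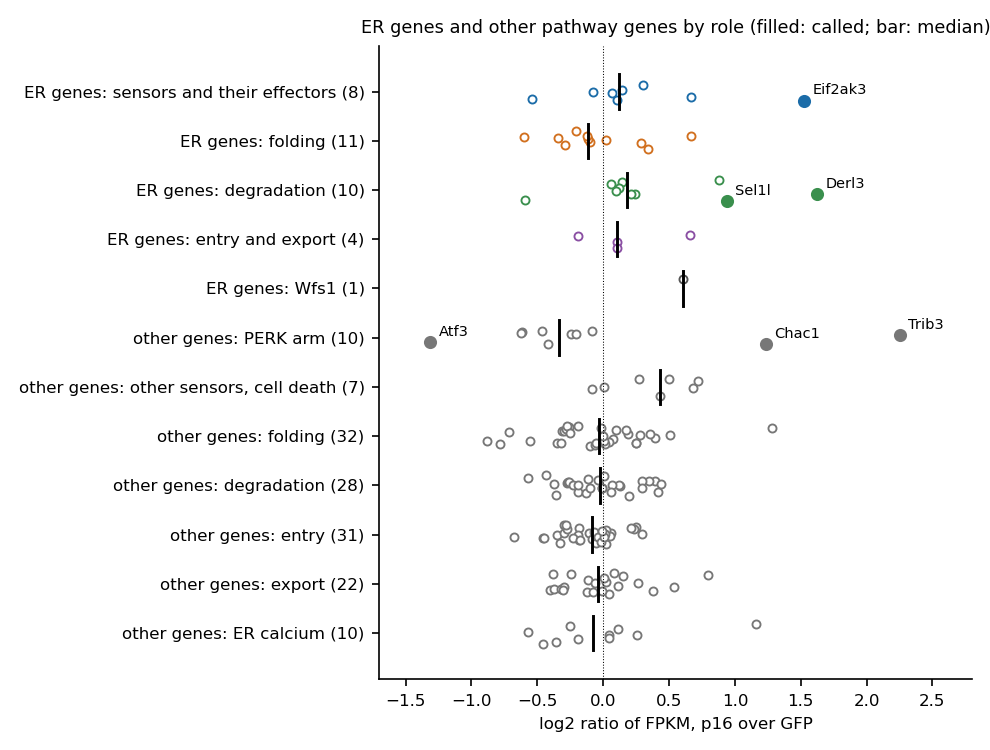
Log2 ratio of FPKM, p16 over GFP, of each ER gene and each other tested pathway gene, 1 row per role with the number of genes in brackets; filled points are called in the authors' deposited table and bars are medians. Filled points appear in the sensor, degradation and PERK arm rows, at 1.52, 0.94, 1.62, 2.25, 1.23 and -1.31.

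Markers of cell type were read in the same table. Of 10 beta cell markers Ins1, Ins2 and Iapp have 0 as their listed value and a status of too many fragments in both groups, and the other 7 summed to 4742 FPKM in GFP cells and 3605 FPKM in p16 cells. Of these 7, 4 were lower in value and 3, Pdx1, Mafa and Nkx6-1, were higher, and G6pc2 alone stood at 3012 and 2327 FPKM. Slc2a2 was called lower in the authors' deposited table, and no other of the 7 was called. The 4 delta and PP cell markers were all higher in value, with 3 called higher in the authors' deposited table and a sum of 1816 and 3897 FPKM in GFP and p16. Of 5 alpha cell markers 4 were higher in value, and 1 of the 4 tested was called higher in the authors' deposited table. The alpha cell markers summed to 2159 and 2781 FPKM. Acinar cells make much of the same ER machinery, and 0 of their 10 tested markers was called in the authors' deposited table. Apart from Bhlha15, a factor of secretory cells at 20.5 and 35.5 FPKM, no acinar marker exceeded 6.58 FPKM with GFP or 6.20 FPKM with p16, and Ptf1a is listed at 0 in either group. Stellate markers summed to 0.461 and 4.55 FPKM, with 2 of 5 tested and 2 called higher in the authors' deposited table. Duct markers summed to 151 and 181 FPKM, with 5 of 6 tested, 2 called higher and 1 lower in that table. Immune markers summed to 9.66 and 9.16 FPKM, with 3 of 7 tested and 1 called higher in that table. Among the duct markers Krt7 alone stood at 134 and 152 FPKM, without a call (q = 0.814 in the authors' deposited table). The called ones were Sox9 at 0.122 and 0.492 FPKM, Spp1 at 3.85 and 15.1 FPKM and Krt19 at 5.75 and 1.79 FPKM. Endothelial markers summed to 2.99 and 3.56 FPKM, and of the 5 only 1 was tested, without a call in the authors' deposited table. Markers that were not tested could not be called. The part of these cell types in the values of the ER genes was not tested.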

How the data were processed

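RNA-seq of GFP-positive beta cells was done in 5 samples, 3 of the p16 group and 2 of the GFP group. The submitters' processing notes name mm9 with TopHat2, Cuffdiff and Cuffnorm. Their versions, the annotation and the use of strand were not given in the sources used here. Per gene and group the authors' deposited table holds 1 FPKM value, with Cuffdiff's p-value and q-value, per the file headers. FPKM is no count, so no count model was run, and group values allow no fit over samples. The smallest p-value deposited was 5e-05, shared by 271 genes, all with q = 0.00245. Overlapping genes share a locus, and coordinates had 1 added to their start.

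The 34 genes and all lists were chosen with earlier results of these data known. All 34 are named; of the other pathway genes, up to 4 called genes per role of largest change on log2(FPKM + 1), or, with fewer than 2 called, the 2 of highest mean FPKM. Ratios have no pseudocount. GC content came from the longest GENCODE M21 transcript (99.1% of tested genes), in 20 bins. Scripts ran in Python 3.11.15 with matplotlib 3.10.9, scipy 1.17.1, pandas 2.3.3 and numpy 2.4.6. The adjustment, normalization and binning were tested on simulated data. Alternatives covered pseudocounts, filters, scaling and thresholds. The planned reading of protein ends was not done.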

Additional observations from a re-analysis of the deposited data

How the results depend on the processing

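The log2 ratios of the called genes stayed above 0 under the 5 other pseudocount and scaling settings, at 1.33 to 1.54 for Eif2ak3, 1.30 to 1.64 for Derl3 and 0.85 to 1.05 for Sel1l. At a q-value below 0.01 in place of 0.05 the genes called higher among the 34 were 2, without Sel1l, and below 0.1 they were 4, with Syvn1. With the adjustment repeated over genes whose mean reached 1 or 5 FPKM, Eif2ak3, Derl3 and Sel1l kept their calls and Syvn1 was not called. Of the other pathway genes called lower there were 0 at a q-value below 0.01 and 2 below 0.1, against 1. The median log2 ratio of the 34 genes was 0.25 with quantile normalization on log2(FPKM + 1), against 0.10, and that of the folding genes was 0.03, against -0.12. Subtracting the median of genes of like GC content lowered the median of the 34 genes to 0.058, left 19 with the higher value in place of 23, and turned the sign of the uncalled Atf6b, P4hb, Os9, Sec61a1, Sec61b and Ssr1.

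No paired analysis was possible because the table holds 1 value per group and none per sample. For the same reason leaving out single samples was not run. The depth per library is unknown, which limits how far a missed call can be read.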
